A study of Mus musculus with 9 samples.

Results

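Hmgn1 and 7 other genes of the high mobility group (HMG) chromatin proteins, Hmgn2, Hmgn3, Hmgn5, Hmga1, Hmgb1, Hmgb2 and Hmgb3, were followed through 9 RNA-seq libraries of mouse oocytes. They are 8 of 30153 genes in the tables and were found by gene symbol. Hmgn1 was chosen because its level had been seen to take 2 values that cut across the groups, so its levels are given as a description, with no test. The other 7 genes were taken to see whether they did the same.

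The oocytes were at metaphase II, the stage at which an egg is ovulated, and came from 4-week-old females of mixed genetic background with the genotype Sycp3CreERT2/+; Rosa26nT-nG/+. In these mice Cre expressed from the meiotic gene Sycp3 converts a nuclear red reporter to a green one in cells where it acts, and all groups carry both alleles. Females received 5 IU of PMSG and, 48 h later, 5 IU of hCG, and eggs were stripped of cumulus cells after a further 13 h. They were picked by fluorescence into RFP, GFP Low and GFP High pools, 3 libraries of each. In the order listed, the RFP pools held 88, 87 and 100 oocytes, the GFP Low pools 49, 52 and 57, and the GFP High pools 15, 15 and 16. The labels do not say whether libraries with the same number share animals or a day, or that pools came from separate animals, so p-values measure only the spread between pools.

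The libraries held 19381677 to 27746256 counted fragments. The GFP reporter followed the labels, at 0 to 0.594 CPM (counts scaled to the library total) in RFP, 14.5 to 23.9 in GFP Low and 36 to 44 in GFP High. All 10 oocyte markers were detected in every library and summed to 7431 to 9052 CPM. The 16 cumulus and granulosa markers summed to 74.7 CPM in RFP 2, 57.9 CPM in GFP High 1, 54.5 CPM in GFP Low 1, and 10.8 to 29.4 CPM in the other 6, where 2 to 12 of the 16 were at 0. Of 7 blood markers, 2 were in the tables and summed to at most 1.39 CPM.

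HMG proteins are abundant small proteins that bind chromatin without reading a specific DNA sequence. HMGN proteins bind the nucleosome core itself, compete with linker histone H1 and loosen chromatin. HMGA proteins grip the narrow groove of AT-rich DNA with short AT-hooks, and HMGB proteins bend DNA with HMG boxes. A metaphase II egg is transcriptionally silent, so its mRNA is a store laid down during growth, and genes of these families are also known for their many retrocopies, copies of the mRNA pasted back into the genome.

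Retrocopies matter for reading the values, because reads from nearly identical sequences can be assigned to either locus. Hmgn1 (ENSMUSG00000040681, protein coding) lies at chr16:96120618-96127729 on the minus strand of mm10 (GRCm38). Of other rows in the tables, 3 resembled its transcript, all annotated as processed pseudogenes: Gm8666 at chrX:75475232-75475523, Gm7862 at chr12:76152336-76152627 and Gm11663 at chr11:104571268-104571557. Each corresponds to the Hmgn1 coding stretch, bases 126 to 416 of a transcript of 2174 bases, or 13.4% of it. That stretch and the 3 whole retrocopies, from the GENCODE M21 transcripts, are printed to show how little separates them, with letters unlike Hmgn1 in capitals (an omitted letter leaves no mark).
Hmgn1: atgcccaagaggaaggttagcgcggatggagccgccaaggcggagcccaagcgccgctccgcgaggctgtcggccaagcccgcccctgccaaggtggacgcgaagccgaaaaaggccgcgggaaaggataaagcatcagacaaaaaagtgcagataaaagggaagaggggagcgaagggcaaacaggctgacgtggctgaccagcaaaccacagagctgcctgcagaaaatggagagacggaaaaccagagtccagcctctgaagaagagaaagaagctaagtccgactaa
Gm8666: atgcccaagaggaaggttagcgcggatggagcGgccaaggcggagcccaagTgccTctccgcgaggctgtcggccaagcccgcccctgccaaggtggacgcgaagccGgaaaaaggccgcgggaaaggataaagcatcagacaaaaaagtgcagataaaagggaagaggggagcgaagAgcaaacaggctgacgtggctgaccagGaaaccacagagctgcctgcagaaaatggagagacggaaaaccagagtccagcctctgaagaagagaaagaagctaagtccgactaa
Gm7862: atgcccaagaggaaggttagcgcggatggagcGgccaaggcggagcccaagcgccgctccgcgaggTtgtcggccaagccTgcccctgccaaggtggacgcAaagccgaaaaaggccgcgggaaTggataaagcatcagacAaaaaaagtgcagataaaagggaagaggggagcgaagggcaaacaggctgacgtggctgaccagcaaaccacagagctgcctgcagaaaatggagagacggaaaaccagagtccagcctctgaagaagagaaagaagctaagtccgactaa
Gm11663: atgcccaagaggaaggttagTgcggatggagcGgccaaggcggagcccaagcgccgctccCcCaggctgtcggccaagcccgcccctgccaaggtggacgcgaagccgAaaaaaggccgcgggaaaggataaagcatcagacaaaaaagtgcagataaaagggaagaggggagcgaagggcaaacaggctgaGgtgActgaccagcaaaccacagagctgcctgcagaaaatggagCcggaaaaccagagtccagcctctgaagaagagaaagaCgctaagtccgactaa

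Gm8666 and Gm7862 each differ from the Hmgn1 coding stretch by 5 substitutions and 1 inserted base, and Gm11663 by 8 substitutions and 3 inserted or missing bases. Gm7862 holds a run of 150 bases identical to Hmgn1, Gm8666 one of 86 and Gm11663 one of 83. The larger share of the Hmgn1 transcript, outside its coding stretch, has no counterpart in these 3 rows.

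Hmgn1, whose protein loosens the nucleosome, was counted at 170.0, 195.1 and 687.9 CPM in RFP 1, 2 and 3. GFP Low 1, 2 and 3 held 199.7, 753.7 and 765.8 CPM, and GFP High 1, 2 and 3 held 202.7, 231.9 and 692.8 CPM. All CPM values were scaled by TMM factors, which adjust for differences in RNA composition. Each group held libraries at both levels, and the groups overlapped. From 231.9 to 687.9 CPM there was no library, a step of 2.97-fold or 1.57 on the log2 scale, which was 72.3% of the whole log2 range. The 5 libraries below the step lay within 1.36-fold of one another, and the 4 above it within 1.11-fold. The counts behind these values were 3873 to 5703 below the step and 15415 to 21244 above it, so neither level rests on few counts. Over all genes replicates differed beyond sampling noise, and the part of such noise in the step was not tested. In bulk RNA, fewer cells with a transcript and less of it per cell cannot be told apart.

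**Figure D1:**
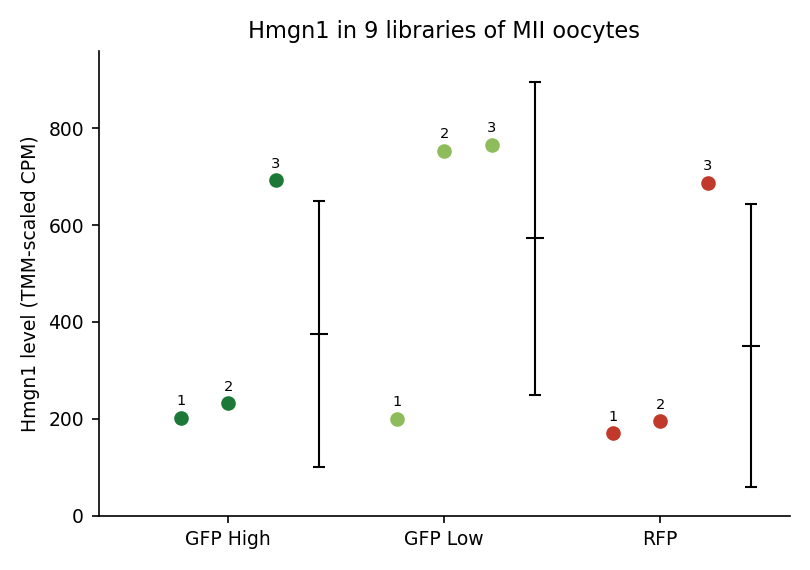
Hmgn1 level (vertical axis, TMM-scaled CPM from 0) in the 9 libraries, grouped as GFP High, GFP Low and RFP; points are libraries with their replicate number, and the black mark is the group mean with its SD (n = 3). No library falls between 231.9 and 687.9 CPM, and every group has points on both sides.

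The group means of Hmgn1 were 351.0 ± 292.0 CPM for RFP, 573.0 ± 323.4 for GFP Low and 375.8 ± 274.9 for GFP High (SD, n = 3), and no library sat near any of these means. The fitted log2 fold change was 0.11 for GFP High over RFP, 0.71 for GFP Low over RFP and -0.61 for GFP High over GFP Low. When 1 library was left out it ran from -0.70 to 1.04, from 0.38 to 1.65 and from -1.40 to -0.32 in the same order. By label number, the 3 libraries numbered 1 were below the step, the 3 numbered 3 were above it, and the libraries numbered 2 lay on both sides. What the numbers stand for is not in the labels.

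The place of this step among other genes is given only to describe it, since Hmgn1 was chosen for it. Among 6062 genes with a mean of at least 20 CPM, ranked by the largest step that leaves at least 2 libraries on each side, Hmgn1 was the third. Hist1h2al (7.41 on the log2 scale) and Gm26917 (2.41) had larger steps, and Rpl26 (1.35) and Stom (1.10) came next. Those 4 genes are named because of their values. Among all 12807 genes with a mean of at least 1 CPM, 184 had a step at least as large, Hmgn1 included. A further 105 of the 6062 genes (1.73%) had the same 4 highest libraries as Hmgn1, but the largest step between those libraries and the rest was 0.21 in them, in Lgr6, which was picked out after its values were seen.

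Vcan, Inhba, Tnfaip6 and Inha were picked from the cumulus and granulosa markers after their values were seen. They were higher in 4 of the 5 libraries below the Hmgn1 step than in the 4 above it. GFP High 2 was the exception. The share of all genes that do so was not counted. Vcan, a matrix proteoglycan of cumulus cells, was at 7.40, 15.0 and 0.26 CPM in RFP 1, 2 and 3, at 11.8, 0.344 and 1.84 in GFP Low, and at 10.5, 0 and 0.944 in GFP High. Inhba, an activin subunit, was at 2.49, 8.25 and 0.26 CPM in RFP, 6.44, 0.344 and 0.721 in GFP Low, and 5.44, 0 and 0.225 in GFP High. Tnfaip6 and Inha had the same 4 highest libraries, GFP High 1, GFP Low 1, RFP 1 and RFP 2, all below the Hmgn1 step. Vcan, Inhba, Tnfaip6 and Inha were at 0 in GFP High 2, which was also below it, and these 4 are named because of their values. Other markers of the list did not follow them. Ptx3 was at 0.679 CPM in RFP 1 against 1.59 in GFP Low 3, and Ptgs2 at 0.642 against 2.23. Has2 was highest, at 1.08 CPM, in GFP High 3, which was above the step. The sum of the 16 markers also holds Cyp19a1, the aromatase of granulosa cells, at 6.87 to 18.2 CPM in all 9 libraries, including 17.7 of the 27.9 CPM in GFP Low 3. The 3 libraries with the highest sums, RFP 2, GFP High 1 and GFP Low 1, were below the step, but so were GFP High 2, which had the lowest sum (10.8 CPM), and RFP 1 (29.4 CPM). The 4 libraries above the step had sums of 12.5 to 27.9 CPM. A part of these cells in the Hmgn1 level was not tested.

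The 3 retrocopy rows were lowest in the 4 libraries where Hmgn1 was highest. Gm8666 stood at 11.8, 23.4 and 3.34 CPM in RFP 1, 2 and 3, at 21.0, 4.43 and 2.56 in GFP Low 1, 2 and 3, and at 23.7, 17.9 and 3.10 in GFP High 1, 2 and 3. Its 4 lowest libraries were the 4 highest of Hmgn1. Gm7862 stood at 6.08, 12.1 and 3.97 CPM in RFP, 12.1, 4.31 and 2.56 in GFP Low, and 8.87, 8.30 and 5.66 in GFP High, again with the same 4 libraries lowest. Gm11663, at 0.0449 to 1.75 CPM, had the same 4 libraries lowest, at 0.0449 to 0.433 CPM on only 1 to 12 counts. Its other libraries lay at 1.13 to 1.75 CPM. Of 36 pairs of libraries, Gm8666 was in the opposite order to Hmgn1 in 28, Gm7862 in 30 and Gm11663 in 22. Among the 6062 genes with at least 20 CPM, 34 had these 4 libraries as their lowest. Gm8666, Gm7862 and Gm11663, with means of 12.4, 7.1 and 0.933 CPM, are outside that set. The count therefore does not cover rows as low as theirs.

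Together the retrocopies held 5.55 to 8.97 CPM in the libraries where Hmgn1 was at 687.9 CPM or more and 19.0 to 37.0 CPM in the others. Relative to Hmgn1, their sum was 19.0% in RFP 2 and 0.725% in GFP Low 3. With their counts added to Hmgn1, the step was 1.42 on the log2 scale in place of 1.57. Gm7862 lies within Esr2 on the same strand and Gm11663 overlaps Myl4 on the opposite strand, so reads of those genes cannot be told apart from theirs in the overlap. Why the retrocopy rows were lowest where Hmgn1 was highest was not tested.

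**Figure D2:**
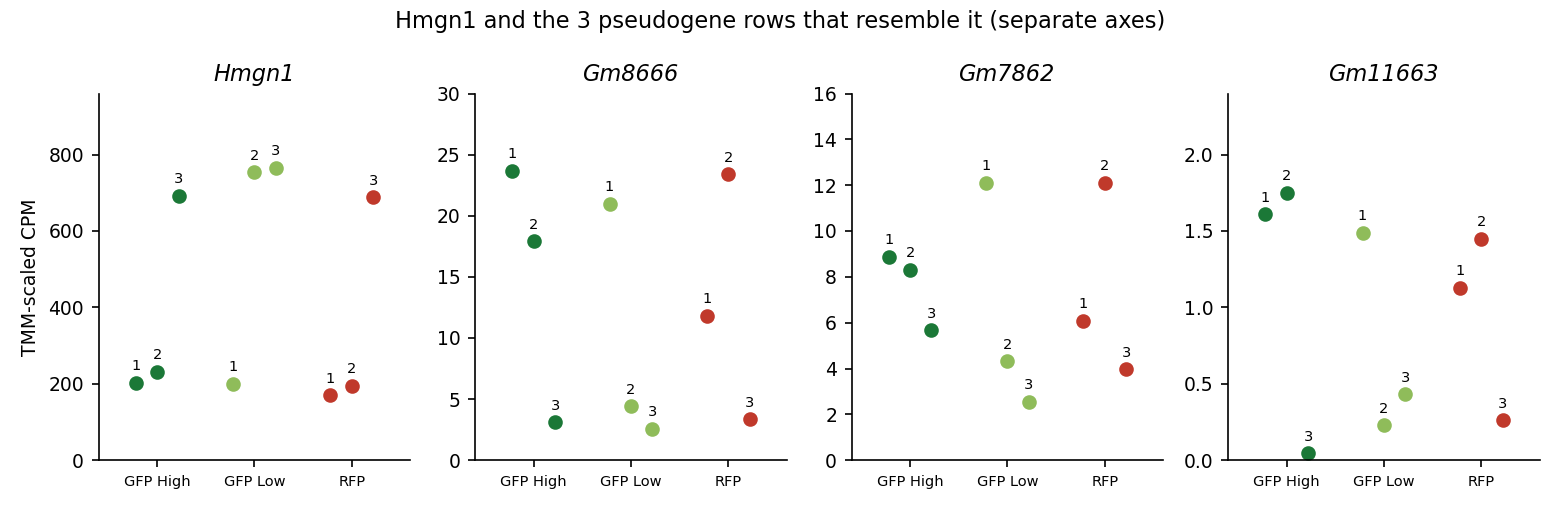
TMM-scaled CPM (vertical axes from 0, a separate scale in each panel) of Hmgn1 and the pseudogenes Gm8666, Gm7862 and Gm11663 in the 9 libraries; points are libraries with their replicate number. The 4 libraries at 687.9 CPM or more for Hmgn1 are the 4 lowest in each of the other panels.

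None of the other 7 HMG genes had 2 levels of this kind. Their largest step with at least 2 libraries on each side was 0.42 on the log2 scale in Hmgn3, 0.28 in Hmgn2, 0.23 in Hmgb2, 0.16 in Hmgb1, 0.09 in Hmgb3 and 0.06 in both Hmgn5 and Hmga1. For Hmgn5 and Hmga1, 5377 and 5380 of the 6062 genes with at least 20 CPM had a step as large or larger. The number of the 36 library pairs in the same order as Hmgn1 was 24 for Hmga1, 20 for Hmgb3, 15 for Hmgb2, 14 for Hmgn3, 13 for Hmgn2, 11 for Hmgb1 and 10 for Hmgn5. No member shared the 4 highest libraries of Hmgn1.

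**Figure D3:**
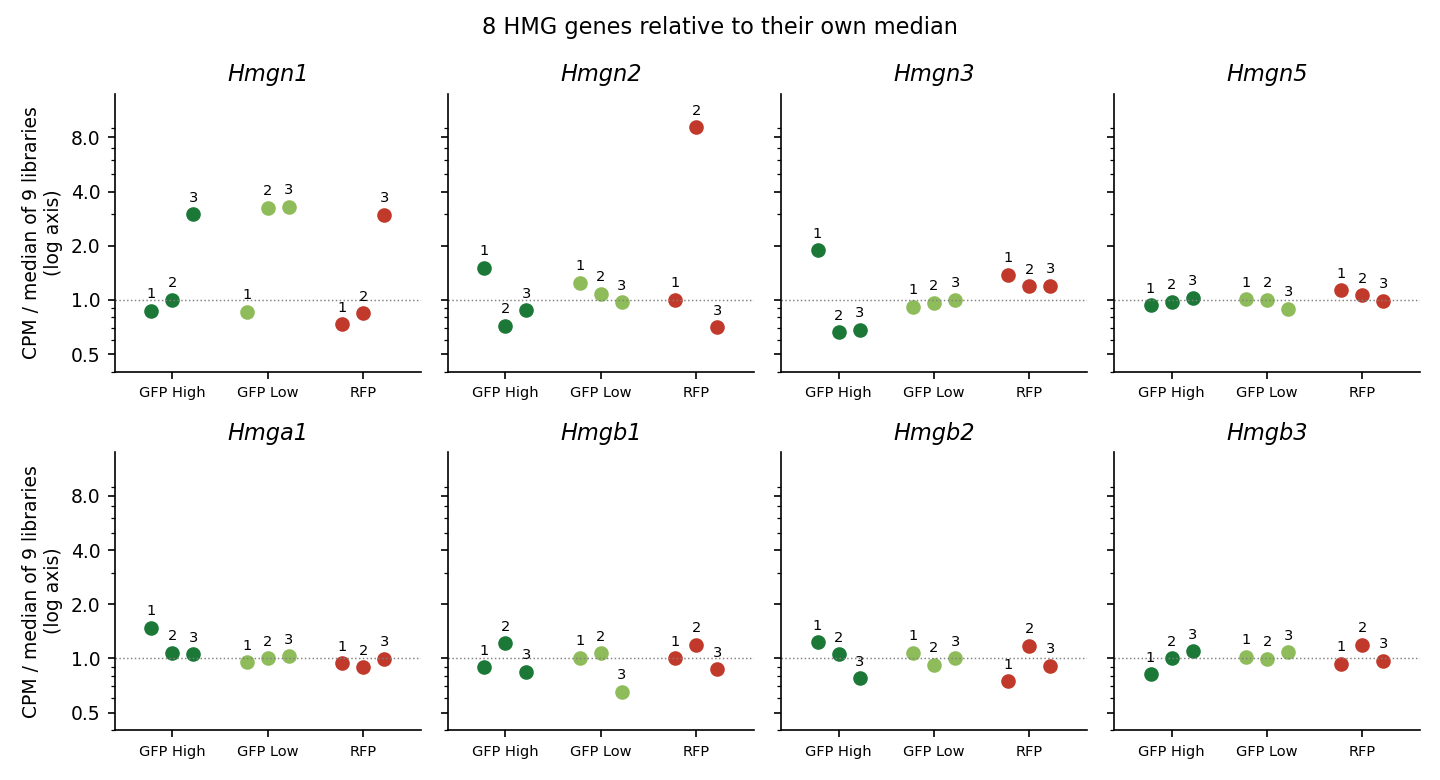
Level of each of the 8 HMG genes divided by its own median over 9 libraries (vertical log axis, no unit), by group; points are libraries with their replicate number and the dotted line marks the median. Hmgn1 alone has 4 points near 3 times its median; Hmgn2 has 1 raised point, RFP 2, and Hmgn3 and Hmga1 are highest in GFP High 1.

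Per unit length, Hmgb2 was by far the most abundant member. The authors' FPKM (fragments per kilobase of gene model and per fixed number of fragments) of Hmgb2 was 538.8 to 895.8 over the 9 libraries, with a median of 721.2. Hmgn5 (median 76.3 FPKM, range 68.0 to 86.5), Hmgn1 (72.0, range 52.2 to 234.7) and Hmgb3 (64.1, range 52.0 to 75.6) followed, and their ranges overlapped. Hmgn5 was above Hmgn1 in 5 of 9 libraries, and Hmgn1 above Hmgb3 in 6 of 9, so the order of these 3 is not settled by their spread. Hmga1 (28.5 FPKM) was below Hmgb3 in all 9 libraries, Hmgb1 (17.3 FPKM) below Hmga1 in all 9, and Hmgn3 (1.98 FPKM) below Hmgb1 in all 9. Hmgn2 (0.695 FPKM) was below Hmgn3 in 8 of 9, RFP 2 being the exception. FPKM divides by a model that can join several transcripts, so a gene's length affects its place in this order.

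**Figure D4:**
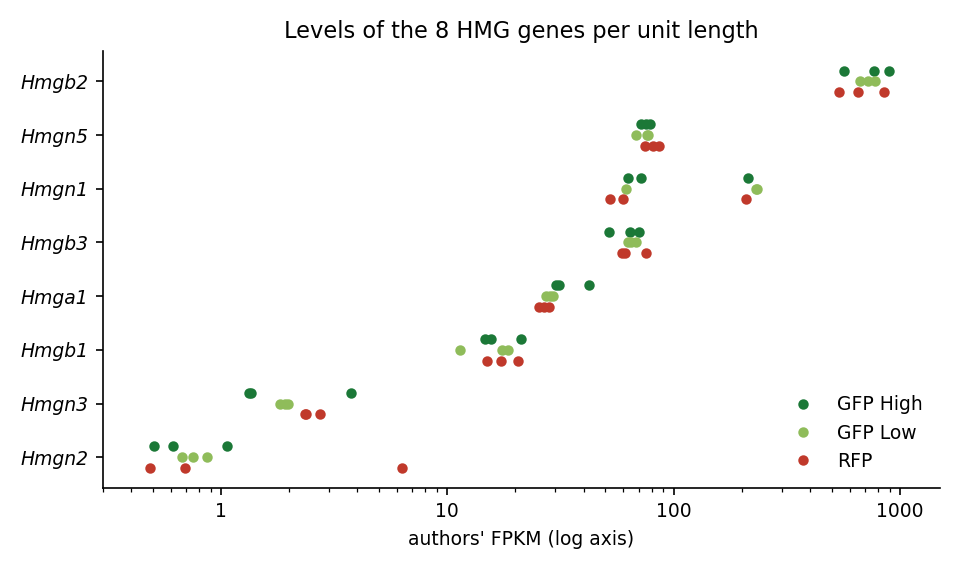
Authors' FPKM (horizontal log axis) of the 8 HMG genes, ordered from the highest median to the lowest; each point is a library, in rows by group within a gene. Hmgb2 lies between 538.8 and 895.8 FPKM, apart from all others, and the Hmgn1 points fall in 2 clumps.

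Among the other HMGN genes, Hmgn5 was the steadiest. Hmgn5 (chrX:109004534-109013404), whose protein has a long acidic tail that meets linker histones, was at 169.3, 158.2 and 148.2 CPM in RFP, 150.5, 149.4 and 133.2 in GFP Low, and 139.7, 145.8 and 153.7 in GFP High. The 9 values spanned 1.27-fold and the groups overlapped. Its log2 fold change was -0.11 (95% interval -0.34 to 0.12) for GFP High over RFP and -0.13 (-0.33 to 0.06) for GFP Low over RFP. A resembling row, the pseudogene Gm11914 (99.4% identity), was at 18.1 to 30.8 CPM.

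Hmgn2, the closest relative of Hmgn1, was low except in 1 library. Hmgn2 (chr4:133964738-133968650) had 57, 446 and 41 counts in RFP 1, 2 and 3, 52, 61 and 58 in GFP Low, and 89, 38 and 42 in GFP High. These are 2.15, 19.6 and 1.52 CPM in RFP, 2.68, 2.33 and 2.09 in GFP Low, and 3.25, 1.55 and 1.89 in GFP High. RFP 2 was high and the other 8 libraries lay between 1.52 and 3.25 CPM. The log2 fold change was -1.79 (SE 0.88) for GFP High over RFP and -1.71 (SE 0.74) for GFP Low over RFP, with edgeR Benjamini-Hochberg adjusted p of 0.997 and 1. Without RFP 2 they were 0.28 and 0.36. With no filter on low counts, Hmgn2 was called for GFP Low over RFP at the same fold change (edgeR adjusted p = 2.62e-04). In the authors' deposited table the values were -1.79 and -1.71, with no unadjusted p given. RFP 2 was also the library with the highest cumulus marker sum (74.7 CPM, with Tnfaip6 at 10.9, Ptx3 at 9.70 and Inha at 6.32). GFP High 1 and GFP Low 1, with sums of 57.9 and 54.5 CPM, had Hmgn2 at 3.25 and 2.68 CPM, and a part of these cells in the Hmgn2 value was not tested.

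The Hmgn2 row is uncertain, because 13 other rows resemble it. Gm10282, a locus on chromosome 8 annotated as protein coding and 99.3% identical over 1151 bases, its whole length, was at 63.6 to 94.7 CPM. Gm7931 (6.34 to 12.9 CPM) and Hmgn2-ps1 (1.75 to 5.29 CPM) are processed pseudogenes. Outside RFP 2 the resembling rows held 97.2% to 98.2% of the summed counts of Hmgn2 and its look-alikes, and 82.5% in RFP 2. With all rows added, the level was 111.8 CPM in RFP 2 and 76.2 to 114.4 CPM in the other 8, so RFP 2 no longer stood apart. The log2 fold changes of the sum were 0.10 for GFP High over RFP and 0.02 for GFP Low over RFP.

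Hmgn3 (chr9:83109948-83146685), which is best known from endocrine and nervous tissue, was at 5.17, 4.48 and 4.49 CPM in RFP, 3.45, 3.63 and 3.75 in GFP Low, and 7.08, 2.48 and 2.56 in GFP High. GFP High 1 was the highest of all 9 libraries and GFP High 2 and 3 the lowest. The 3 GFP Low libraries lay below the 3 RFP libraries, by -0.38 on the log2 scale (95% interval -0.95 to 0.18, edgeR adjusted p = 1). The value for GFP High over RFP was -0.21 (SE 0.51), and -0.90 without GFP High 1. No other row resembled Hmgn3.

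Hmga1 (chr17:27556497-27563674), the AT-hook member, was at 57.5, 54.8 and 60.8 CPM in RFP, 58.3, 61.2 and 62.9 in GFP Low, and 90.4, 65.8 and 64.6 in GFP High. All 3 GFP High libraries were above all 6 others. The log2 fold change was 0.36 (SE 0.16) for GFP High over RFP (edgeR Benjamini-Hochberg adjusted p = 0.997). It was 0.28 (SE 0.15) for GFP High over GFP Low (edgeR adjusted p = 0.998). Without GFP High 1 they were 0.17 and 0.10. GFP High 1 was among the libraries with a high cumulus marker sum (57.9 CPM), but RFP 2 with the highest sum had the lowest Hmga1, and a part of these cells was not tested. The authors' deposited table gave 0.37 for GFP High over RFP, with p = 0.0301 and an adjusted p of 0.585.

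Hmga1b, a row on chromosome 11 with 99.8% identity to Hmga1 over 1602 bases, was at 30.5, 45.3 and 38.8 CPM in RFP, 49.0, 44.2 and 44.3 in GFP Low, and 55.6, 35.2 and 33.6 in GFP High. Its groups overlapped, so the separation of GFP High seen for Hmga1 was not seen for this copy. With both rows added, the log2 fold change was 0.27 for GFP High over RFP and 0.11 for GFP High over GFP Low. AI413582 overlaps Hmga1 on the opposite strand at 1.57 to 6.39 CPM, and the labels do not say that reads were counted by strand. The other AT-hook gene of the family, Hmga2, was at 39.3 to 68.4 CPM, with log2 fold changes of 0.06, 0.04 and 0.01 (SE 0.22, 0.14 and 0.23) for GFP High over RFP, GFP Low over RFP and GFP High over GFP Low.

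Hmgb2 (chr8:57511907-57515999), a DNA-bending protein and a part of the SET complex, took 0.216% of all counts. It stood at 1638, 2575 and 1997 CPM in RFP, 2360, 2021 and 2194 in GFP Low, and 2702, 2312 and 1706 in GFP High. GFP High 1 and RFP 2 were the highest and RFP 1 the lowest, so the spread lay within groups. The log2 fold change was 0.12 (95% interval -0.29 to 0.52) for GFP High over RFP, 0.08 (-0.20 to 0.36) for GFP Low over RFP and 0.03 (-0.27 to 0.34) for GFP High over GFP Low. Its most counted look-alike, the processed pseudogene Gm4739, was at 47.7 to 84.8 CPM. Gm13237 (13.4 to 25.2 CPM) and Tmx3 (3.5 to 12.7 CPM) followed.

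Hmgb1 (chr5:149046702-149184489), the DNA chaperone that also acts as a danger signal outside cells, was at 88.0, 104.7 and 76.7 CPM in RFP, 89.0, 94.2 and 57.7 in GFP Low, and 78.6, 106.7 and 74.2 in GFP High. GFP High 2 and RFP 2 were high and GFP Low 3 was low, and the groups overlapped. The log2 fold change was -0.05 (95% interval -0.43 to 0.34), -0.16 (-0.53 to 0.21) and 0.11 (-0.34 to 0.55) for GFP High over RFP, GFP Low over RFP and GFP High over GFP Low. Its row had the most resembling rows, 64, which together held 451.2 to 577.8 CPM and exceeded Hmgb1 itself in every library. The pseudogene Gm15387 (99.8% identity over 648 bases) alone was at 154.5 to 231.0 CPM, followed by Gm5518 (75.8 to 98.2 CPM) and Hmgb1-ps2 (72.4 to 98.5 CPM). The level of Hmgb1 apart from these copies is therefore uncertain. Uspl1 overlaps Hmgb1 on the opposite strand, at 5.7 to 9.37 CPM.

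Hmgb3 (chrX:71555918-71560676), the X-linked HMG-box protein, was at 134.1, 170.9 and 138.8 CPM in RFP, 145.9, 142.3 and 154.8 in GFP Low, and 116.6, 143.1 and 157.3 in GFP High. GFP High 1 was the lowest and RFP 2 the highest, and the groups overlapped. The log2 fold change was -0.08 (95% interval -0.40 to 0.23) for GFP High over RFP, 0.00 (-0.22 to 0.22) for GFP Low over RFP and -0.09 (-0.35 to 0.18) for GFP High over GFP Low. Its pseudogene Gm6104 (99.5% identity over 603 bases) reached 27.4 CPM in GFP Low 1 and 30 CPM in GFP High 1 and lay at 6.43 to 12.4 CPM in the other 7. Gm6104 overlaps Tcea1 on the opposite strand, which was at 170.2 to 220.1 CPM.

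No HMG gene was called between the groups. All 8 were counted well enough to be tested, and none of the 7 other than Hmgn1 passed a Benjamini-Hochberg adjusted p of 0.05 in edgeR's quasi-likelihood test, in any of the 3 comparisons. Over all genes, 0.0135% were called between GFP High and RFP, 0.0197% between GFP Low and RFP, and 0% between GFP High and GFP Low, so a count of 0 among 7 is near the background. An unadjusted edgeR p under 0.05 was reached by 1 gene between GFP High and RFP (Hmga1), 1 between GFP Low and RFP (Hmgn2) and 0 between GFP High and GFP Low. DESeq2's Wald test called 0 of them as well in each comparison, but it gave Hmgn2 no adjusted p in either comparison against RFP. The groups did not overlap for 1 of 7 in GFP High against RFP (Hmga1), where 11.9% of all genes did not. The same held for 1 of 7 in GFP Low against RFP (Hmgn3; all genes 7.68%) and 1 of 7 in GFP High against GFP Low (Hmga1; all genes 11.5%).

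The median log2 fold change of the 7 genes was -0.08 for GFP High over RFP, -0.13 for GFP Low over RFP and 0.03 for GFP High over GFP Low, where the medians of all genes tested were -0.01, 0.00 and 0.00. Of the 7 genes, 2, 2 and 5 had values above 0. The first and second of these comparisons share the RFP libraries. For Hmgn5, Hmgb1, Hmgb2 and Hmgb3 no interval reached beyond 0.55 on the log2 scale in either direction. Those of Hmgn2 and Hmgn3 reached past 1 in at least 1 comparison, so a 2-fold difference lay within them for these rare transcripts.

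**Figure D5:**
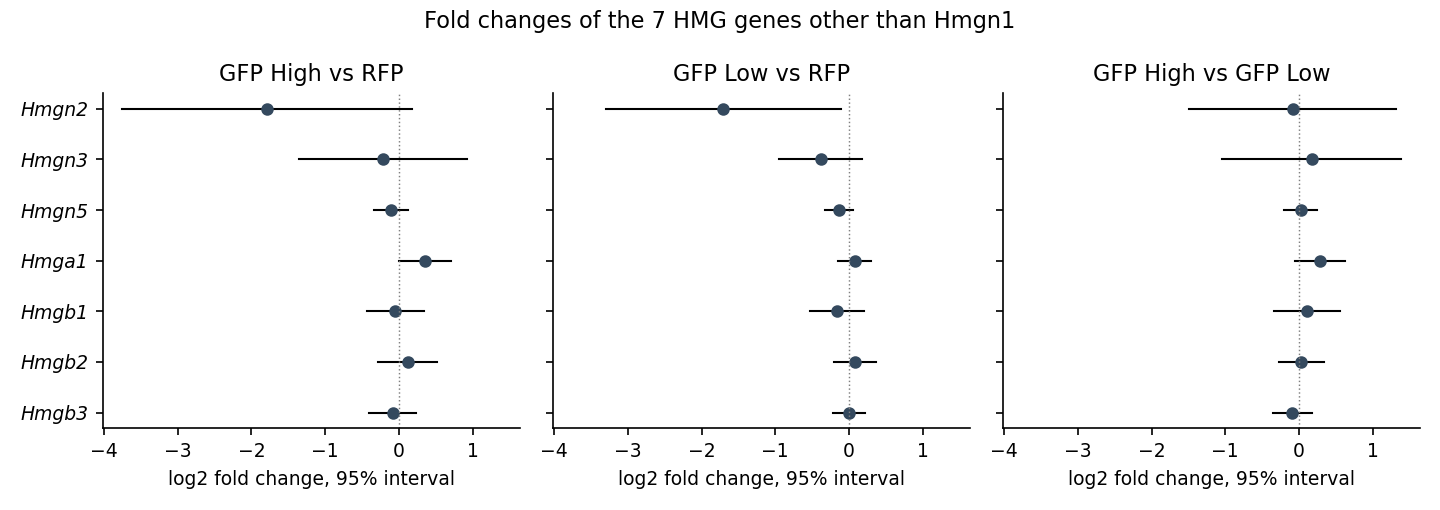
Fitted log2 fold change (horizontal axis) of the 7 HMG genes other than Hmgn1, with its 95% interval, in the 3 comparisons; the dotted line marks no difference. The intervals of Hmgn5, Hmgb1, Hmgb2 and Hmgb3 are narrow and cross 0, and those of Hmgn2 and Hmgn3 are the widest.

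Genes whose profile was most like that of Hmgn1 were of low abundance. They were picked by their values from the 12807 genes with a mean of at least 1 CPM. A search of that size can find near matches that have no link to Hmgn1. Likeness was the mean absolute difference of log2 CPM over the 9 libraries after centring each gene, and a gene with no variation at all would score 0.92 against Hmgn1. Dhrs11, a dehydrogenase, was closest (0.413, 29 of 36 library pairs in the same order). It stood at 1.55, 1.23 and 2.63 CPM in RFP 1, 2 and 3, at 0.825, 3.36 and 3.46 in GFP Low, and at 0.329, 1.38 and 3.06 in GFP High. Its 4 highest libraries were those of Hmgn1, but on 9 to 96 counts. Epha1 (0.432), Ifi30 (0.436), Rab28 (0.449), Trpv4 (0.476), Gm15728 (0.479), Scimp (0.483) and Mknk2 (0.492) followed, with mean levels of 1.14 to 5.88 CPM. With a minimum mean of 10 CPM the closest was Capza1, an actin-capping subunit, at 0.587. It was at 15.2 CPM in GFP High 3, its lowest library, against 46.6, 47.9 and 45.9 in GFP Low 2, GFP Low 3 and RFP 3. The 7 HMG genes scored 0.886 to 1.39, no nearer or hardly nearer than the flat profile.

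The genes beside Hmgn1 on chromosome 16 did not show its step. Of 11 protein-coding genes within 500 kb in the tables, 8 were tested. Brwd1, a reader of acetylated histones 38.1 kb away, was at 440.4 to 531.6 CPM, a span of 1.21-fold. Psmg1, a proteasome assembly factor, spanned 13.2 to 23.4 CPM, Ets2 15.9 to 37.9, Dscam 21.6 to 30.8 and Lca5l 8.42 to 15.9. Wrb, the nearest of the 8 at 17.7 kb and a receptor for tail-anchored proteins, was at 1.34 to 6.32 CPM, with 27 of 36 library pairs in the Hmgn1 order but its highest value in GFP High 1. Sh3bgr (0.469 to 3.55 CPM) and Itgb2l (0 to 1.26 CPM) were rare. The largest step among the 8 was 0.77 on the log2 scale, in Sh3bgr.

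Genes that share a domain with HMG proteins, or work with them, were not called either. Of 23 other proteins with AT-hooks or an HMG box, 22 were in the tables and 22, 22 and 21 were tested between GFP High and RFP, between GFP Low and RFP, and between GFP High and GFP Low. None passed an adjusted p of 0.05 in edgeR (Benjamini-Hochberg), and 1 in each had an unadjusted p under 0.05. Over all genes 0.0135%, 0.0197% and 0% were called, so 0 called is near the background for this list and those below. The share of all genes with an unadjusted p under 0.05 was not counted. Median log2 fold changes of the list were -0.04, 0.02 and -0.04. Those of all genes tested were -0.01, 0.00 and 0.00, here and for the lists below. By FPKM the highest were Hmgxb4 (336.1 to 397.3 CPM), Ssrp1 of the histone chaperone FACT (130.9 to 185.3 CPM) and Smarce1 of the SWI/SNF remodeller (199.9 to 258.4 CPM). None of these genes highest by FPKM had a step like that of Hmgn1. Tox3, an HMG-box gene picked out after its values were seen, ran from 0.0764 CPM in GFP Low 2 to 27.1 CPM in GFP High 1. It was at 11.9 CPM in RFP 1 and RFP 2, 17.1 in GFP Low 1 and 0.691 in GFP High 2.

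Linker histones share the nucleosome with HMGN proteins. Of 9 in the tables, 8, 9 and 8 were tested in the same order, with 0 called and median log2 fold changes of 0.24, 0.06 and 0.18. H1foo, the oocyte linker histone, was at 1162, 1235 and 1005 CPM in RFP, 1139, 1290 and 1123 in GFP Low, and 1623, 1981 and 1288 in GFP High. Every GFP High library was above every RFP library, while GFP Low 2 reached just above GFP High 3. Its log2 fold change was 0.53 (SE 0.14) for GFP High over RFP, with an unadjusted p of 0.00418 and an edgeR adjusted p of 0.997, and 0.46 (SE 0.13) for GFP High over GFP Low, with an edgeR adjusted p of 0.998. Hist1h1a was at 430.7 to 720.9 CPM and H1f0 at 61.8 to 104.3 CPM. Above the Hmgn1 step, H1foo stood at 1290 CPM in GFP Low 2, 1123 in GFP Low 3, 1288 in GFP High 3 and 1005 in RFP 3. The value in RFP 3 was its lowest of all libraries. Below the step it ran from 1139 CPM in GFP Low 1 to 1981 CPM in GFP High 2, so the values on the 2 sides overlapped.

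Of the enzymes that modify HMGN proteins and histones, 5 of 6 were tested in each comparison, with 0 called and medians of -0.09, 0.11 and -0.20. The acetyltransferases Crebbp (483.4 to 669.3 CPM) and Ep300 (100.6 to 137.2 CPM) and Kat2a (19.0 to 26.3 CPM) were the highest by FPKM. Of the SET complex and FACT, 6 genes were tested, with 0 called and medians of 0.08, 0.00 and 0.16. Supt16 was at 569.9 to 658.3 CPM and Anp32a at 77.0 to 108.5 CPM. Of 5 receptors of extracellular HMGB1 in the tables, Tlr9 alone was tested and not called (0.691 to 7.86 CPM). Tlr4 and Cd24a were at 0 to 0.604 and 0 to 0.404 CPM, with a median of 0.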

How the data were processed

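Poly-A RNA from pooled metaphase II oocytes was made into paired-end libraries, per the labels' protocols. The submitters' processing notes name fastp, HISAT2 2.0.5, featureCounts 1.5.0-p3, DESeq2 1.20.0 and mm10, without roles or order. Each of 3 tables deposited by the authors covers 2 groups and holds raw counts, signal (the count divided by a size factor), FPKM, log2 fold changes and p-values, per the file headers. The deposited counts, joined by gene identifier, were tested; FPKM served only to order genes, and 178 genes lacking in at least 1 table were set to 0 there.

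Each comparison used its 6 libraries in edgeR 4.0.16 (R 4.3.3; filterByExpr, TMM, quasi-likelihood test) with Benjamini-Hochberg adjustment over all genes and a threshold of 0.05. CPM used TMM factors over 9 libraries, and log2 profiles a prior count of 2. Fits were tested on simulated data. Rows resembling a member were found with blastn 2.17.0 in GENCODE M21 transcripts (at least 90% identity over 200 bases and 50% of the transcript). Replicates differed beyond sampling noise (chi-square per degree of freedom 13.8 to 57.6) and were counted separately. Library totals were 19381677 to 27746256. No paired design was used, since the labels do not tie numbers to animals or days.

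Genes named are the members, the 8 most like Hmgn1 with at least 1 CPM, tested neighbours within 500 kb, genes overlapping a member, the 3 most counted resembling rows of each member, and the 3 of each list with the highest FPKM; exceptions are stated. A few low look-alike rows and low overlapping genes are not listed. Members and lists were chosen with earlier results of these data known. Alternatives were other normalizations, filters and tests, a fit of all 9 libraries, a replicate block, leaving out each library and, added after the data were seen, adding resembling rows and bias-adjusted deviances.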

Additional observations from a re-analysis of the deposited data

How the results depend on the processing

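The step of Hmgn1 was 1.57 on the log2 scale, 1.54 with DESeq2 size factors and 1.59 with library totals alone. The number of HMG genes called was 0 in all 3 comparisons under every alternative run, with 1 exception. Without a filter on low counts, 1 gene was called for GFP Low against RFP, Hmgn2, at an unchanged log2 fold change of -1.71. Its edgeR adjusted p was 2.62e-04, against 0.999 to 1 in its other edgeR fits. The fold change rests on RFP 2, without which it was 0.36. DESeq2's Wald test gave Hmgn2 no adjusted p in this comparison. Leaving out 1 library gave 0 calls throughout. Apart from left-out libraries, 5 values turned their sign and 162 kept their direction and call. With resembling rows added, Hmgn2 gave 0.10 for GFP High over RFP, 0.02 for GFP Low over RFP and 0.09 for GFP High over GFP Low, and Hmgb1 gave 0.04 for GFP High over RFP. With the replicate block, Hmgn3 gave -0.03 for GFP High over GFP Low.

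Leaving out 1 library turned 24 of 126 values. For GFP High over RFP the ranges that crossed 0 were -2.28 to 0.28 for Hmgn2, -0.90 to 0.04 for Hmgn3, -0.23 to 0.07 for Hmgb1, -0.05 to 0.30 for Hmgb2 and -0.19 to 0.03 for Hmgb3. For GFP Low over RFP they were -2.20 to 0.36 for Hmgn2, -0.29 to 0.03 for Hmgb1, -0.06 to 0.27 for Hmgb2 and -0.07 to 0.12 for Hmgb3, which was 0.00 with all libraries. For GFP High over GFP Low they were -0.47 to 0.12 for Hmgn2, -0.52 to 0.42 for Hmgn3, -0.04 to 0.05 for Hmgn5, -0.09 to 0.23 for Hmgb1, -0.13 to 0.19 for Hmgb2 and -0.19 to 0.02 for Hmgb3. The cause was not tested, beyond each fit having fewer samples.

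Same-numbered libraries did not deviate together across genes: the correlations of their deviations from the group means ran from -0.106 to 0.12. Such values cannot tell whether same-numbered pools share animals or a day. The replicate block called 0 members in each comparison and moved Hmgn2 to -0.75 and -0.76 against RFP. Over all genes it called 4, 3 and 0, where the fit without it called 2, 3 and 0. Without a filter on low counts these were 16, 34 and 16, and with DESeq2's Wald test 12, 10 and 4. Depth limits Hmgn2 and Hmgn3, with 38 to 89 counts outside RFP 2 and 57 to 194 counts.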
